A study of Mus musculus with 6 samples.

Results

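The Dlx genes encode a family of homeodomain transcription factors, and all 6 mouse members, Dlx1 to Dlx6, were among the 17512 genes of the deposited count table. They were chosen by name, as a family proposed after the KO and WT counts of these same lines had been seen. Their KO and WT values are therefore given as a description, with no p-value, and nothing is read from how many of them differed or passed a threshold. RNA-seq had been done on 6 lines of pMEFs, which are primary mouse embryonic fibroblasts, the connective-tissue cells that grow out of mid-gestation embryos once the internal organs are taken away. All were of C57bl6 background and grown in DMEM medium with serum and antibiotics. The 3 HAT1 WT lines (36, 47 and 78) carried intact Hat1, and the 3 HAT1 KO lines (33, 41 and 72) were labelled as knocked out for Hat1, the enzyme that acetylates new histone H4 before its assembly into chromatin. No drug or other allele was listed for either group. The labels gave 1 line number to each sample and did not tie the lines to litters, so the spread between lines may hold differences between embryos as well as between cultures.

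Dlx genes lie in the genome as facing pairs, each pair transcribed toward each other and sharing enhancers placed in and around the gap between them. Endothelin signals act on Dlx5 and Dlx6 in the jaw arch, and BMP signals act on Dlx genes in the jaw arches and limb buds. In the jaw arches nested combinations of Dlx pairs specify the upper and lower jaw. Dlx3, Dlx5 and Dlx6 act again in bone and cartilage. In the forebrain Dlx1, Dlx2, Dlx5 and Dlx6 drive the production of inhibitory neurons. Fibroblasts grown from whole embryos are a mixed population, in which cells from the face and limbs are one part.

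In the GENCODE M21 annotation of the GRCm38 assembly, Dlx1 (chr2:71528113-71533981, plus strand) and Dlx2 (chr2:71543408-71546754, minus strand) were separated by 9.43 kb. Dlx1 began 86.5 kb after the end of Hat1 (chr2:71388958-71441622, plus strand), so the pair lay on the chromosome of the targeted gene. Dlx3 (chr11:95120119-95125296, plus strand) and Dlx4 (chr11:95140447-95146263, minus strand) were 15.2 kb apart. Dlx6 (chr6:6863334-6868568, plus strand) and Dlx5 (chr6:6877805-6882085, minus strand) were 9.24 kb apart.

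The members are similar in the homeobox, which raises the question of whether reads of one member could be counted for another. The stretch of 60 coding bases that codes for the recognition helix, the part of the homeodomain that sits in the groove of DNA, is shown for each member from the GENCODE M21 transcripts. It is written 5′ to 3′ with every base that differs from Dlx2, the member with the most counts, in capitals, and an intron interrupts it in all 6 genes.
Dlx1 (chr2:71531139-71532305, plus strand): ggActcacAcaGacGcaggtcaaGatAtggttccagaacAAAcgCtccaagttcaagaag
Dlx2 (chr2:71544883-71545401, minus strand): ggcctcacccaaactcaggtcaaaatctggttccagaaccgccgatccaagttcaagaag
Dlx3 (chr11:95121881-95123450, plus strand): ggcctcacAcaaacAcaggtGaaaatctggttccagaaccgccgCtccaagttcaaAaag
Dlx4 (chr11:95141428-95141806, minus strand): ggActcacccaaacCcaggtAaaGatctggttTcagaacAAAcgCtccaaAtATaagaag
Dlx5 (chr6:6878447-6879543, minus strand): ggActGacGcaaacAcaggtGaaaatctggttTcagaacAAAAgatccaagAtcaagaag
Dlx6 (chr6:6865254-6867082, plus strand): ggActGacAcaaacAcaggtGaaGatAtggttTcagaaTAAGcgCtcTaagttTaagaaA
Against Dlx2, Dlx3 kept 91.7% of these bases, Dlx1 83.3%, Dlx5 81.7%, Dlx4 80.0% and Dlx6 73.3%. The longest run of identical bases between the whole transcripts of any pair of members was 23 bases, found for Dlx2 with Dlx3, Dlx2 with Dlx6 and Dlx3 with Dlx5. In the transcripts compared, a read longer than this could not match another member exactly. Sharing of reads with mismatches was not tested, and the aligner is not given in the sources used here.

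Total counts lay between 67720628 and 98786746 per library, and of the 17512 genes 14773 passed the filter on low counts and were tested with edgeR's quasi-likelihood test. Levels are CPM, that is counts relative to library sizes corrected by TMM, the trimmed mean of M-values. Hat1 was at 17.4, 23.0 and 20.1 CPM in WT lines 36, 47 and 78 and at 10.2, 10.0 and 10.3 CPM in KO lines 33, 41 and 72, a log2 fold change of -0.99 (SE 0.119, edgeR adjusted p = 0.0376). All 8 fibroblast markers were expressed, with a summed level of 57010 to 88890 CPM. The 8 blood and myeloid markers in the table all lay lower in the KO lines, at 997 to 1186 CPM in sum against 1821 to 1967 CPM in the WT lines, while Hbb-bs was not among the genes listed. Y-linked genes summed to 183 and 160 CPM in WT lines 36 and 47 but to 2.33 CPM in WT line 78 and at most 0.118 CPM in the KO lines, so WT line 78 was the WT line most like the KO lines in this respect. In KO line 72, 2.19% of all tested genes were at least 2 times higher than in every other line. This share was not taken for the other lines, so it does not rank KO line 72 among them.

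The Dlx genes had low levels throughout, and Dlx4 and Dlx6 had no counts in some lines. By mean CPM, Dlx2 ranked 10810th of the 17512 genes, Dlx1 12466th, Dlx5 13558th, Dlx3 14061st, Dlx6 15629th and Dlx4 16811th. Per kilobase of exon, Dlx2 was at 0.667 ± 0.0196 CPM in the WT lines and at 1.91 ± 1.15 CPM in the KO lines (SD, n = 3 each). The next in order in the WT lines was Dlx1 with 0.0712 ± 0.0669 CPM per kilobase, followed by Dlx5 with 0.0554 ± 0.00963. Dlx3 had 0.0356 ± 0.0267, Dlx6 0.0219 ± 0.0223 and Dlx4 0.00683 ± 0.00628 CPM per kilobase. The order was the same in the KO lines, with 0.258 ± 0.110 for Dlx1, 0.233 ± 0.107 for Dlx5, 0.128 ± 0.204 for Dlx3, 0.0315 ± 0.0546 for Dlx6 and 0.00830 ± 0.00796 for Dlx4. Dlx2 stood above the other members in every line. Neighbours below Dlx2 in either order differed by less than the larger of their SDs. Dlx2 made up between 62.2% and 86.2% of all Dlx counts of a line. The whole family summed to 3.16, 2.39 and 2.20 CPM in WT lines 36, 47 and 78 and to 5.27, 5.33 and 12.8 CPM in KO lines 33, 41 and 72.

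**Figure D1:**
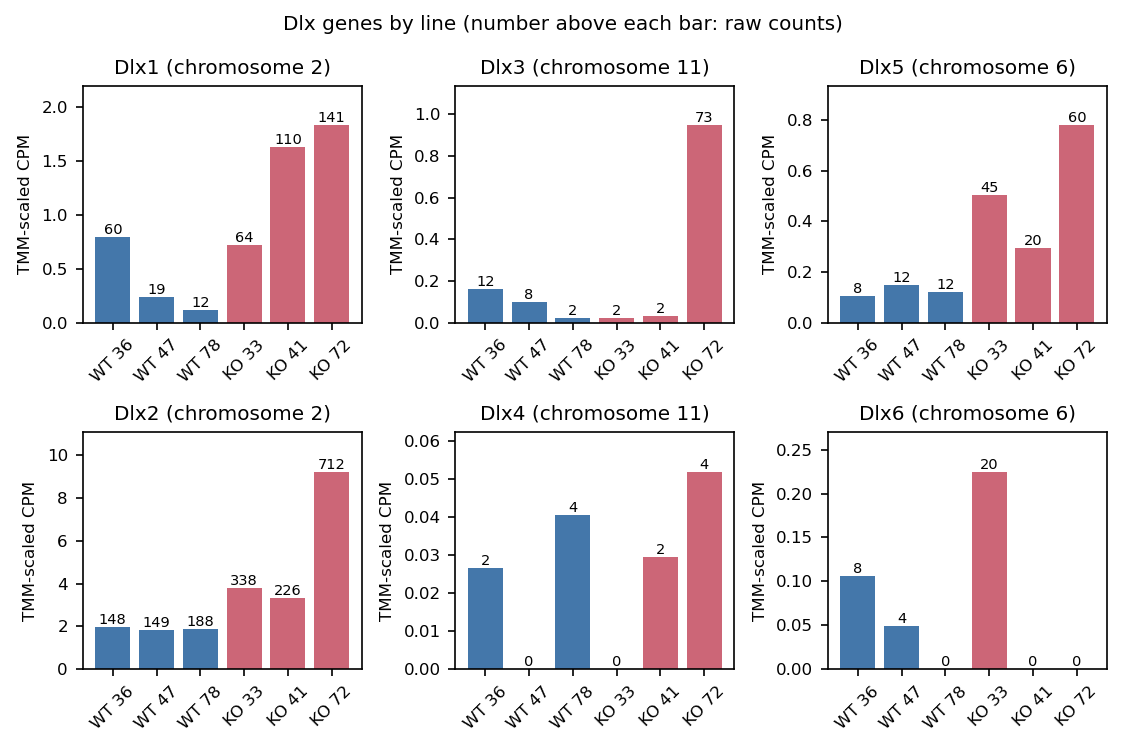
Level of each Dlx gene in TMM-scaled CPM, on a separate linear axis from 0 for each gene, with 1 bar per line (blue, HAT1 WT; red, HAT1 KO) and the raw count above it. Dlx2 and Dlx5 are higher in every KO line than in any WT line, Dlx1 overlaps through WT line 36, and the Dlx3 counts lie mainly in KO line 72.

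Dlx2, the member with the most transcript, was steady in the WT lines and higher in each KO line. WT lines 36, 47 and 78 had 1.96, 1.85 and 1.90 CPM (148, 149 and 188 counts). KO lines 33, 41 and 72 had 3.80, 3.34 and 9.23 CPM (338, 226 and 712 counts). The groups did not overlap, and KO line 72 was 2.43 times the next line. The mean was 1.90 ± 0.0559 CPM in the WT lines and 5.46 ± 3.28 CPM in the KO lines, a log2 fold change of 1.52 (SE 0.413), or 2.86-fold. KO line 72 set much of this size: without it the log2 fold change was 0.92, with KO lines 33 and 41 still above every WT line. In bulk RNA a larger number of cells with Dlx2 and more Dlx2 RNA per cell cannot be told apart.

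Dlx1, the partner of Dlx2 on chromosome 2, was more scattered. WT lines 36, 47 and 78 had 0.796, 0.236 and 0.121 CPM (60, 19 and 12 counts), while KO lines 33, 41 and 72 had 0.719, 1.63 and 1.83 CPM (64, 110 and 141 counts). WT line 36 lay above KO line 33, so the groups overlapped, and the rest of the WT lines lay below all KO lines. The means were 0.384 ± 0.361 CPM in WT and 1.39 ± 0.591 CPM in KO, a log2 fold change of 1.86 (SE 0.747), or 3.64-fold. This value depended on WT line 36 more than on KO line 72. It was 2.96 without WT line 36 and 1.63 without KO line 72.

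Dlx5, which acts with Dlx6 in the lower jaw and in bone-forming cells, lay on another chromosome and had the largest fold of the tested members. WT lines 36, 47 and 78 had 0.106, 0.149 and 0.121 CPM (8, 12 and 12 counts), while KO lines 33, 41 and 72 had 0.505, 0.296 and 0.778 CPM (45, 20 and 60 counts). Every KO line was above every WT line, although the smallest KO count was only 20. The means were 0.126 ± 0.0218 and 0.526 ± 0.242 CPM, a log2 fold change of 2.06 (SE 0.453), or 4.16-fold. Dlx5 passed the filter on low counts only through the KO lines, so it could enter the fit only by being higher there. Without KO line 72 the KO mean was 3.19 times the WT mean.

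Dlx3, a gene of skin, placenta and bone, did not pass the filter on low counts. It had 12, 8 and 2 counts in WT lines 36, 47 and 78 and 2, 2 and 73 counts in KO lines 33, 41 and 72. KO line 72, at 0.946 CPM, was 5.95 times the next line. The ratio of KO to WT means was 3.58 with that line and 0.280 without it, so its direction was set by 1 library.

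Dlx4, the partner of Dlx3, was close to the limit of detection. WT lines 36, 47 and 78 gave 2, 0 and 4 counts, and KO lines 33, 41 and 72 gave 0, 2 and 4. Dlx6, the partner of Dlx5, had 8, 4 and 0 counts in WT lines 36, 47 and 78 and 20, 0 and 0 counts in KO lines 33, 41 and 72. A count of 0 allows up to 3 counts, or between 0.0303 and 0.0444 CPM in the libraries where it occurred, which covers counting error only. No difference in Dlx4 or Dlx6 was detectable at this depth. In a fit with no filter the log2 fold changes were 1.86 (SE 1.46) for Dlx3, 0.20 (SE 1.33) for Dlx4 and 0.65 (SE 1.70) for Dlx6. Dlx6 thus did not share the KO counts of its partner Dlx5 in KO lines 41 and 72, where Dlx5 had 20 and 60 counts. Of the 6 counts of each Dlx gene, between 4 and 6 were even numbers, and over all genes 75.1% of counts from 1 to 10 were even against 55.0% of counts from 101 to 1000. Whether a read pair was counted as 1 or as 2 is not given in the sources used here.

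Of the 3 members that passed the filter, 0 passed an adjusted p of 0.05 in edgeR, where 0.528% of all tested genes did, every one of them lower in the KO lines. By the rule of the study, which asks for a 1.5-fold change and an unadjusted p under 0.05, all 3 passed as higher, beside 1.5% of all tested genes. Both Dlx2 and Dlx5 had all KO lines above all WT lines, as had 9.59% of tested genes. The DESeq2 Wald test called 2 of them, Dlx2 and Dlx5, at an adjusted p under 0.05, beside 5.43% of genes in either direction, and voom from limma called 0, beside 1.81%. The median log2 fold change of the 3 was 1.86, against 0.01 over all tested genes. Since this contrast was used in choosing the family, and members at low counts could be tested only where high, these counts carry no weight of their own.

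**Figure D2:**
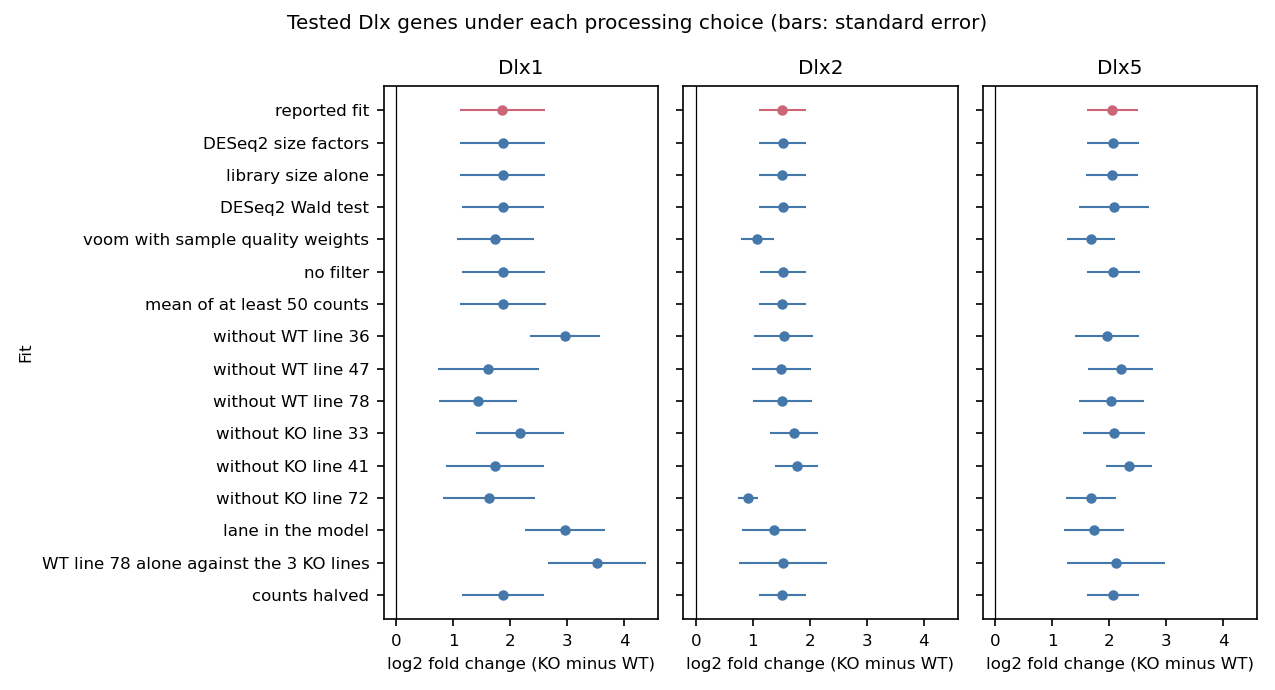
Log2 fold change (KO minus WT, horizontal axis) of Dlx1, Dlx2 and Dlx5 under each way of processing the counts (vertical axis), with bars for the standard error and the reported fit in red. All points lie above 0, Dlx1 ranges from 1.44 to 3.52, Dlx2 from 0.92 to 1.77 and Dlx5 from 1.68 to 2.34.

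Sequencing lanes and sex-linked expression were not balanced between genotypes, so the members are also described within them. For Dlx2 and Dlx5 the direction was fixed beforehand, since every KO line lay above every WT line. For Dlx1 it was fixed for WT lines 47 and 78, which lay below all KO lines. The readings within lanes and against WT line 78 therefore repeat that direction. They are no separate test of lane or sex-linked expression, although lanes 6 and 7 each held both genotypes. In lane 6, KO lines 33 and 72 were above WT line 47 for Dlx1, Dlx2 and Dlx5. In lane 7, KO line 41 was above WT line 78 for the same genes, and lane 8 held WT line 36 alone. A fit with a lane term gave log2 fold changes of 2.96 for Dlx1, 1.37 for Dlx2 and 1.74 for Dlx5. Without that term they were 1.86, 1.52 and 2.06. Lane 8 held no KO line, so WT line 36 could not inform the genotype difference once lane was fitted. Leaving out WT line 36 also gave 2.96 for Dlx1, so this rise cannot be read as a correction for lane. Against WT line 78 alone, the WT line whose Y-linked level was nearest to that of the KO lines, all 3 KO lines were higher for Dlx1, Dlx2 and Dlx5. Genes of neurons and glia, another cell source of Dlx transcripts, were summed over the 5 of 7 markers in the table and lay at 60.1 to 76.6 CPM in the WT lines and at 72.9 to 214 CPM in the KO lines, the highest in KO line 72. Sox10 and Syt1 of that list were at 0 in at least 1 line, and Elavl3 and Snap25 were not among the genes listed. The part of these markers, or of the lower blood and myeloid markers, in the Dlx values was not tested.

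The shape of each member over the 6 lines was compared with that of other genes, as the root mean square difference of log2 CPM centred on its mean over the lines. The candidates were the 13044 or 13045 other tested genes with a mean of at least 0.5 CPM, and the measure is a description over 6 lines. For Dlx5 the nearest of all was Dlx2, at 0.333 on the log2 scale, where the median gene was at 0.991. Next came Ripor2, a regulator of cell polarity, at 0.402 and Kcnf1, a potassium channel subunit, at 0.414. Dlx5 itself, at a mean of 0.326 CPM, was not a candidate, and its distance would have placed it 16th for Dlx2. The family was chosen with its KO and WT values known, and Dlx5 was tested only because it was higher in KO. Likeness between members is thus partly built in, and nothing is read from it. For Dlx2 the nearest were Ripor2 at 0.135, Flrt3, a cell adhesion receptor, at 0.196 and Lrrc75b at 0.223, where the median gene was at 0.827. Ripor2 ran from 5.47 to 5.95 CPM in the WT lines and had 10.2, 10.6 and 33.4 CPM in KO lines 33, 41 and 72. Dlx1 went with other genes. Ablim3, an actin-binding protein, was at 0.533 and Limch1, an activator of myosin, at 0.678, where the median gene was at 1.34. Dlx1 and its chromosomal partner Dlx2 were 0.911 apart, which placed Dlx2 45th among the genes nearest to Dlx1, and Dlx1 and Dlx5 were 0.982 apart.

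The Dlx1 and Dlx2 pair was set beside the others to see whether differences clustered near the targeted gene. Metap1d, a mitochondrial methionine aminopeptidase and the only tested gene between Hat1 and Dlx1, had 4.16, 3.81 and 4.26 CPM in WT lines 36, 47 and 78 and 5.18, 4.91 and 5.41 CPM in KO lines 33, 41 and 72. Its log2 fold change was 0.34 (SE 0.128, edgeR adjusted p = 0.308), with no overlap of the groups. Of 12 tested neighbours whose start lay within 1 Mb of Dlx1 or Dlx2, 0 passed the adjusted test and 0 the 1.5-fold rule. An unadjusted p under 0.05 in edgeR was found for 4 of the 12, beside 14.6% of all tested genes. The median log2 fold change of the 12 was 0.08. In 3 of the 12 all KO lines lay above all WT lines, as in 9.59% of tested genes, and in 2 all KO lines lay below, as in 12.4%. These were Gorasp2, Slc25a12 and Metap1d above and Tlk1 and Itga6 below, listed here after their values were seen. The largest differences among those above 1 CPM were 1.92 (SE 1.02) for the iron reductase Cybrd1, whose value was -0.11 without KO line 72, and -0.48 (SE 0.137) for Itga6, a laminin receptor subunit.

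Around Dlx3 and Dlx4, 0 of 39 tested neighbours passed the adjusted test and 5 passed the 1.5-fold rule, with a median log2 fold change of 0.05. The DNA repair gene Eme1 was higher, and the efflux transporter Abcc3, the xylosyltransferase Xylt2, Abi3 and Zfp652os were lower. Abcc3 went from 84.4 to 95.4 CPM in the WT lines to 43.1 to 57.8 CPM in the KO lines, a log2 fold change of -0.84 (SE 0.118, edgeR adjusted p = 0.0527). Itga3, another laminin receptor subunit, had 0.98 (SE 0.574), and 0.16 without KO line 72. All KO lines lay above all WT lines in 9 of the 39, beside 9.59% of all tested genes. They lay below in 7, beside 12.4%. Eme1, Xylt2, Abi3 and Zfp652os were named after their values were seen. Around Dlx5 and Dlx6, 0 of 6 passed either rule, and the log2 fold changes ran from -0.05 to 0.49 with a median of 0.07, led by the mitochondrial carrier Slc25a13 at 0.49 (SE 0.301), which was 0.16 without KO line 72, and the asparagine synthetase Asns at 0.20 (SE 0.179). Over the 3 loci, 8.77% of 57 tested neighbours passed the 1.5-fold rule, beside 6.11% of all tested genes in either direction. At an unadjusted p under 0.05 there were 16 of the 57, 4 of them near Dlx1 and Dlx2 and 12 near Dlx3 and Dlx4, beside 14.6% of all tested genes. The DESeq2 Wald test called 5, beside 5.43% of all genes, and voom called 2, beside 1.81%.

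**Figure D3:**
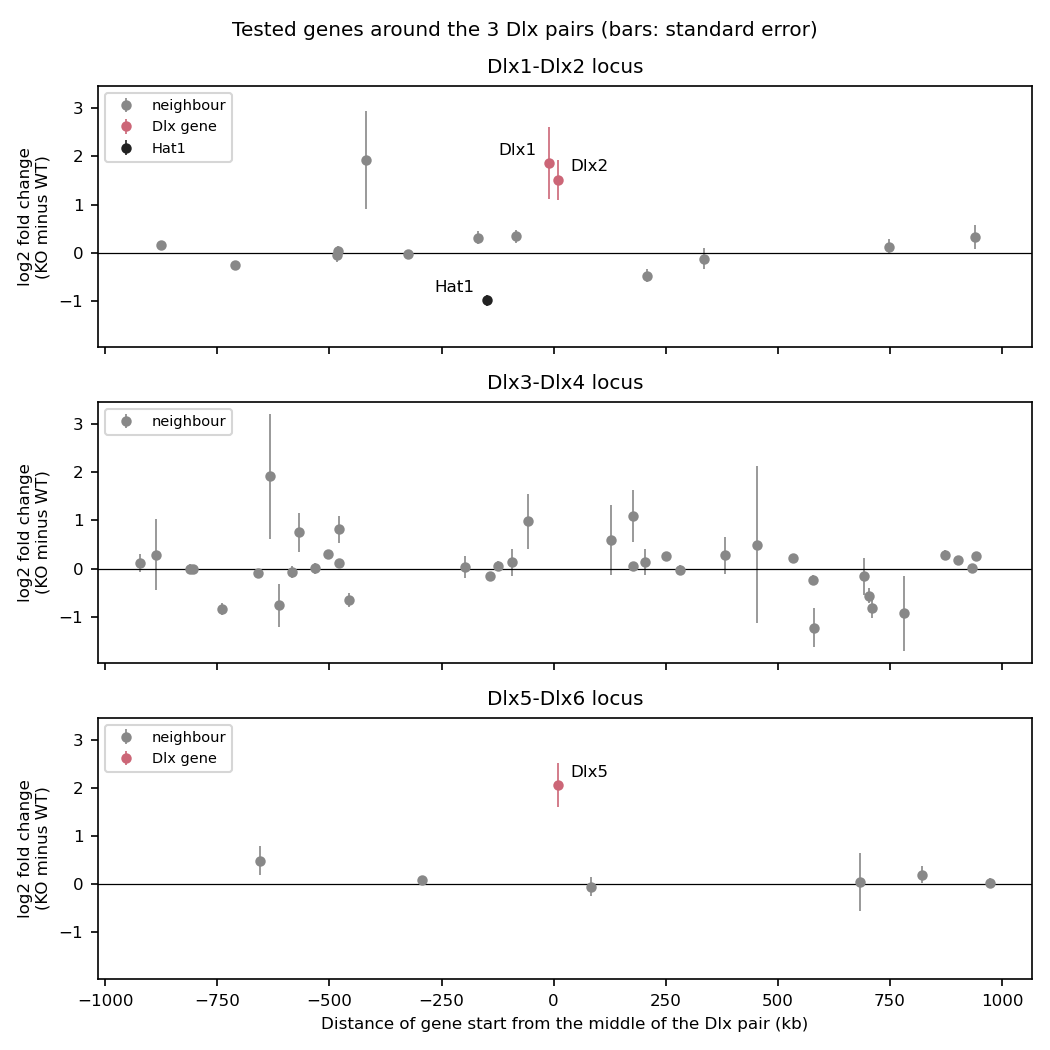
Log2 fold change (KO minus WT, vertical axis, bars for the standard error) of each tested gene against the distance in kb of its start from the middle of the Dlx pair, with 1 panel per pair (red, Dlx genes; black, Hat1; grey, neighbours). Dlx1, Dlx2 and Dlx5 lie between 1.52 and 2.06. The neighbours lie between -0.48 and 1.92 around Dlx1 and Dlx2 and between -1.23 and 1.92 around Dlx3 and Dlx4. Around Dlx5 and Dlx6 they lie between -0.05 and 0.49.

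The bases before the start of Dlx2 are shown because Dlx2 carried most of the family's transcript. The RefSeq promoter table of GRCm38.p6 held Dlx1 and Dlx2 of the 6 members. The 250 bases before the RefSeq start of Dlx2 follow, at chr2:71546755-71547004 on the minus strand, with E-boxes (CACGTG) and the reverse strand of a CCAAT box (ATTGG) in capitals.
Dlx2 promoter: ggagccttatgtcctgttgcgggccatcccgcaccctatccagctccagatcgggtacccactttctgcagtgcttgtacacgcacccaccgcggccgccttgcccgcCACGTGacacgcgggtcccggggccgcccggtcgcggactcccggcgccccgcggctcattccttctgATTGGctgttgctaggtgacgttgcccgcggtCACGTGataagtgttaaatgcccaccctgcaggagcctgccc
The motifs were chosen after this sequence was seen, and each was searched on both strands. There were 2 matches to CACGTG, which reads the same on both strands and occurred in 6.02% of the 32851 promoter windows of this length. There was 1 match to CCAAT, which occurred in 33.8%. The homeodomain core TAATTA, found in 4.84% of windows, and the TATA box TATAAA, found in 12.4%, had 0 matches here. G and C made up 66.4% of the Dlx2 window, where the median window held 52.4%. The Dlx1 window had 0 matches to each of the 4 motifs.

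Genes that act with the Dlx family were grouped as upstream signals, patterning partners, genes of bone and cartilage, genes of forebrain inhibitory neurons and antisense partners. Of 62 listed genes 47 were in the table and 42 were tested. With edgeR 0 passed an adjusted p of 0.05 and 3 had an unadjusted p under 0.05, namely Mef2c, Gna11 and Msx1, beside 14.6% of all tested genes. The DESeq2 Wald test called 1, beside 5.43% of all genes, and voom called 1, beside 1.81%. By the 1.5-fold rule 1 gene was higher and 1 lower, which was 4.76% of those tested, beside 6.11% of all tested genes. In KO line 72, 8 of the 42 genes, or 19.0%, were at least 2 times higher than in every other line, beside 2.19% of all tested genes. They were Bmp4, Hand2, Msx1, Msx2, Tfap2a, Tfap2b, Sp9 and Dmp1. Counts per line were low for Sp9, from 2 to 68, and for Dmp1, from 2 to 142. The lists were chosen with earlier results of these data known, and the rule was applied to this line alone. Nothing is therefore read from this share.

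Among the upstream signals, 11 of 13 were tested and their median log2 fold change was 0.06. Mef2c, a transcription factor that carries endothelin signals to Dlx5 and Dlx6 in the jaw arch, was at 52.1, 51.4 and 53.6 CPM in WT lines 36, 47 and 78 and at 36.2, 36.2 and 26.2 CPM in KO lines 33, 41 and 72. The groups did not overlap, and the log2 fold change was -0.67 (SE 0.134, edgeR adjusted p = 0.109). It was thus lower in the lines where Dlx2 and Dlx5 were higher, as were all 8 blood and myeloid markers in the table. A relation of Mef2c to the Dlx genes or to these markers was not tested. Bmp4, a secreted signal that induces Dlx and Msx genes, was at 11.9, 4.91 and 3.67 CPM in WT lines 36, 47 and 78 and at 5.54, 3.25 and 68.3 CPM in KO lines 33, 41 and 72. Only KO line 72 stood out, and the log2 fold change of 1.92 (SE 1.20) turned to -0.61 without it. Wnt5a, a secreted signal of limb outgrowth, ran from 139 to 162 CPM in WT and from 165 to 253 CPM in KO, without overlap, at a log2 fold change of 0.39 (SE 0.176, edgeR adjusted p = 0.382), or 0.18 without KO line 72. Fgf10, which starts limb buds, overlapped at 0.39 (SE 0.614), and was at -0.46 without KO line 72.

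Among the patterning partners, transcription factors of the jaw arches and limb buds, 17 of 20 were tested with a median log2 fold change of 0.47. Msx1, a homeodomain factor of the same tissues as Dlx genes, had 1.83, 2.88 and 1.48 CPM in WT lines 36, 47 and 78 and 1.75, 2.22 and 88.1 CPM in KO lines 33, 41 and 72. KO line 72 alone was high, at 30.6 times the next line, and the log2 fold change of 3.90 (SE 1.60, edgeR adjusted p = 0.337) was -0.04 without it. Tfap2b, a factor of neural crest cells, was 27.1 times and Msx2 16.6 times the next line in KO line 72, with log2 fold changes of 4.03 (SE 1.73) and 2.95 (SE 1.44), which were 0.04 and -0.52 without it. Pitx1, a hindlimb and lower jaw factor, varied widely within the genotypes, from 0.121 to 14.4 CPM in WT and from 0.314 to 4.22 CPM in KO, at a log2 fold change of -1.65 (SE 1.55). In the same line Dlx3 was 5.95 and Dlx2 2.43 times the next line, and Dlx5 1.54 and Dlx1 1.12 times.

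**Figure D4:**
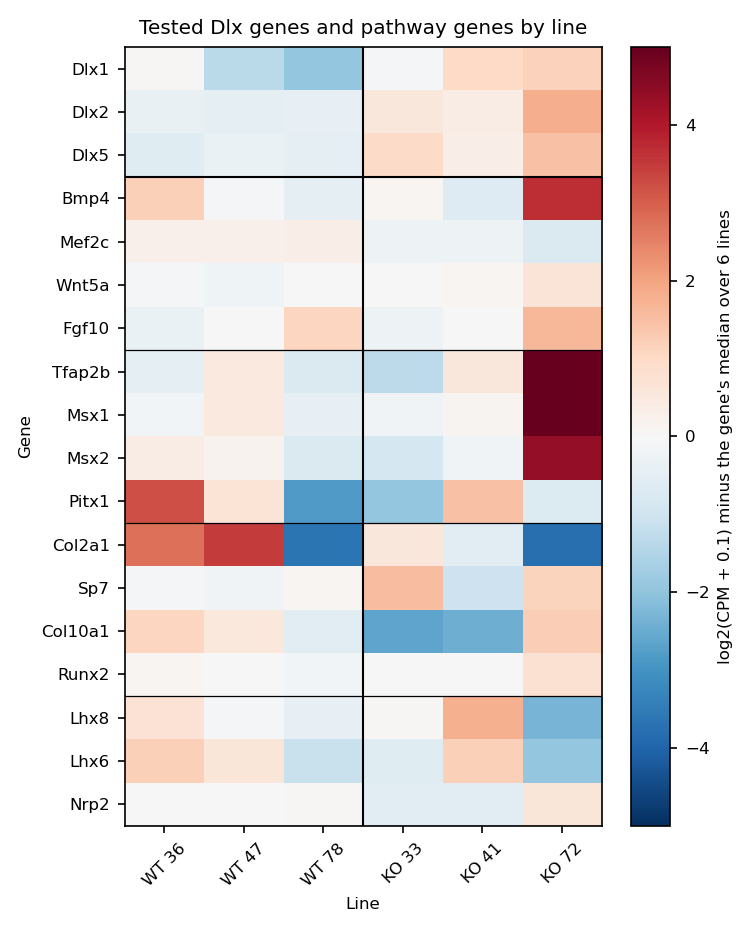
Heat map of the 3 tested Dlx genes and the named genes of the upstream, patterning, skeletal and forebrain lists (rows) in the 6 lines (columns), coloured by log2(CPM + 0.1) minus the gene's median over the lines, with colours limited to 5 in either direction. KO line 72 is dark red for Bmp4, Tfap2b, Msx1 and Msx2, while Dlx2 and Dlx5 are higher in all 3 KO lines.

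In the bone and cartilage list 10 of 14 genes were tested, 0 passed either rule, 0 had an unadjusted p under 0.05 and the median log2 fold change was 0.25. The cartilage collagen Col2a1 had 61.5, 102 and 0.627 CPM in WT lines 36, 47 and 78 and 13.5, 6.08 and 0.570 CPM in KO lines 33, 41 and 72. WT line 78 and KO line 72 were both low, and the log2 fold change of -3.02 (SE 1.65) rested on WT lines 36 and 47. Sp7, a factor of bone-forming cells that acts with Dlx5, had 1.01 (SE 0.643), Col10a1 of mature cartilage -0.68 (SE 1.09) and Runx2, the main bone factor, 0.33 (SE 0.222). All overlapped between the genotypes. Without KO line 72 Col10a1 was at -3.06 and Runx2 at 0.04, and voom gave -2.67 for Col10a1.

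In the forebrain list 4 of 10 genes were tested, 0 passed either rule, 0 had an unadjusted p under 0.05 and the median log2 fold change was 0.12. Lhx8 and Lhx6, LIM homeodomain factors of both forebrain and jaw mesenchyme, had log2 fold changes of 0.51 (SE 0.978) and -0.45 (SE 0.944), and Nrp2, a semaphorin receptor, had -0.08 (SE 0.319). Lhx8 and Lhx6 were lowest of the 6 lines in KO line 72, where Dlx2 was highest. Gad1, Slc32a1, Gsx1 and Gsx2 were not among the genes listed. Of the antisense partners, Dlx6os1 was present with 1 to 6 counts per line and was not tested. Strand was not marked by the library kit, so reads of Dlx6 and of its antisense transcript cannot be told apart.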

How the data were processed

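RNA-seq libraries of 6 pMEF lines were made by the authors from total RNA with the TruSeq RNA v2 kit. The authors deposited raw counts per gene, without normalization, beside their own comparison (log2 fold change, log2 mean CPM, F, p and q), which was not used. The submitters' processing notes name mm10 and edgeR. Aligner, counter and use of strand are not given in the sources used here. Genes were matched to GENCODE M21 by identifier (17512 of 17512), and 24 symbols stored as dates were restored.

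Counts were tested in R 4.3.3 with edgeR 4.0.16 (filterByExpr, TMM, glmQLFit and glmQLFTest with genotype, two-sided), with Benjamini-Hochberg adjustment over 14773 genes. DESeq2 1.42.0 and voom with sample weights (limma 3.58.1) were alternatives, and each was tested on simulated counts with known changes. These changes were placed only in genes with a mean of at least 50 counts, at a fixed spread between lines. Members below that mean, such as Dlx5, were thus not covered, nor were genes that vary more widely. SE is the log2 fold change divided by the square root of F. With 3 lines against 3, an exact permutation test cannot go below 0.1.

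The members and lists were chosen with earlier results of these data known. Named were Hat1, the Dlx genes, tested genes between Hat1 and Dlx1, the 4 largest changes per list and the 2 largest per locus (mean of at least 1 CPM), and the 3 genes nearest in pattern to each tested member. One of these is not reported here. Exon length was the union of a gene's annotated exons. The p-values measure the spread between lines, which the labels do not tie to separate litters. Total counts ranged from 67720628 to 98786746. No libraries held identical values.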

Additional observations from a re-analysis of the deposited data

How the results depend on the processing

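Low counts limited Dlx3, Dlx4 and Dlx6, which entered only some of the fits, and Dlx5, which a filter at a mean of 50 counts removed. The Dlx1, Dlx2 and Dlx5 log2 fold changes stayed above 0 under every alternative in which they were tested, from 1.44 to 3.52, 0.92 to 1.77 and 1.68 to 2.34. Against WT line 78 alone, which is assumed to vary like the other lines, 5 members passed the filter with a median of 3.52, Dlx3 at 3.96 (SE 3.15) and Dlx6 at 5.73 (SE 4.59) included, and 1 passed the 1.5-fold rule. DESeq2 called 2 members. No paired analysis was possible because the groups share no replicate numbers. Halving the counts, chosen after the data were seen, moved no Dlx value by more than its spread.

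Hat1 stayed lower, from -1.08 to -0.87 with each line left out, -1.10 with lane in the model and -0.97 against WT line 78 alone, but no longer passed the adjusted test there (adjusted p from 7.54e-09 to 0.67 over all alternatives). Among pathway genes, the adjusted calls were 1 with DESeq2, 1 with voom and 0 to 2 with each line left out, the 2 coming without KO line 72. By the 1.5-fold rule they were 1 at a mean of 50 counts, 1 with lane, 1 against WT line 78 alone and 1 to 6 with each line left out, 6 without KO line 33 or 41 and 1 without WT line 36 or 47. Among neighbours, the adjusted calls were 1 by library size alone, 5 with DESeq2, 2 with voom and 0 to 1 with each line left out, the 1 coming without KO line 72. By the 1.5-fold rule they were 3 with lane, 3 against WT line 78 alone and 3 to 8 with each line left out, 3 without WT line 78 and 8 without KO line 33.

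Some named genes turned direction. With voom Bmp4 was at -0.12 and Msx2 at -0.01. Against WT line 78 alone Fgf10 was at -0.30, Pitx1 at 3.89, Col2a1 at 3.44, Col10a1 at 0.37 and Lhx6 at 1.32. With each line left out Bmp4 ran from -0.61 to 2.59, Fgf10 from -0.46 to 0.93, Msx1 from -0.04 to 4.46, Msx2 from -0.52 to 3.50 and Cybrd1 from -0.11 to 2.40, each at its lowest without KO line 72. Pitx1 ran from -3.24 to 0.50 and Lhx6 from -1.75 to 0.10, both highest without WT line 36. Lhx8 ran from -0.88 to 1.06, lowest without KO line 41, and Nrp2 from -0.55 to 0.12, positive without KO line 33 or 41. The cause was not tested.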
